A study of Rattus norvegicus with 54 samples.

Results

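The 40 genes described here serve DNA synthesis and cell division, and their RNA was measured on 54 Affymetrix arrays of rat neural progenitor cell (NPC) cultures and of brain biopsies. Members were listed by gene name, as 14 genes of S phase and 26 of mitosis, and the brightest probe set that names a single gene was taken for each. A probe set was found for 38 of the 40 (13 of S phase and 25 of mitosis), out of 27342 main probe sets. Birc5 and Rrm1 had no matching probe set and were not analysed here, and Cdk1 is carried under its older name Cdc2. The probe sets of Ccnb2, Mcm3, Mcm4 and Rrm2 are annotated as sharing probes with other sequences, so their values are less certain.

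All RNA came from Dark Agouti rats, either healthy (naive) or with experimental autoimmune encephalomyelitis (EAE), in which immune cells are primed to attack myelin, much used to study multiple sclerosis. NPC cultures were grown from the subventricular zone (SVZ), the stem cell niche along the lateral ventricle, and from the cervical, thoracic and caudal spinal cord, and were harvested undifferentiated after the second passage or after 5 days of differentiation. Together with direct SVZ biopsies of naive and EAE rats this gave 18 groups of 3 arrays. The labels do not say whether the 3 samples of a group were separate animals or cultures, and the tests take account of nothing beyond the scatter among those 3. RNA was read from whole cultures, where fewer dividing cells and less RNA per cell cannot be told apart.

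The members fall on consecutive stages of the cell cycle. In S phase, Cdc6 loads the Mcm2 to Mcm7 helicase onto origins, Gins1 helps to activate it, Pola1 and Prim1 lay down primers, Pcna clamps the polymerases to DNA, and Rrm2 and Tyms supply nucleotides. In mitosis, cyclins A and B with Cdk1, together with Plk1 and the Aurora kinases, drive entry and spindle assembly, Bub1, Bub1b and Ttk hold back anaphase until chromosomes are attached, and Cdc20 and Ube2c then mark cyclin B for destruction. Genes of the first kind are classically controlled through E2F sites in their promoters, and genes of the second kind through CCAAT boxes, bound by NF-Y, and the cell cycle genes homology region (CHR), bound by MuvB complexes.

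The promoters of 3 S phase members (Pcna, Gene ID 25737; Mcm7, 288532; Mcm6, 29685) and 3 mitosis members (Top2a, 360243; Prc1, 308761; Mki67, 291234) are shown because these are the members of each kind with the highest mean signal among those with a tabled promoter, and they move together below. Each line holds the 250 bases before the RefSeq start in assembly GRCr8, read 5′ to 3′ on the gene's strand, and capitals mark every match, on either strand, to CHR (spelled TTTGAA here, with the variant spelling TTCGAA also counted), to the box spelled CCAAT, or to an E2F-type motif (spelled TTCCCGC here, with the variant spelling TTGGCGC also counted). They lie at chr3:139955821-139956070 (minus strand), chr12:22163179-22163428 (minus strand), chr13:42404353-42404602 (minus strand), chr10:84473094-84473343 (minus strand), chr1:143659231-143659480 (plus strand) and chr1:199952594-199952843 (minus strand).
Pcna: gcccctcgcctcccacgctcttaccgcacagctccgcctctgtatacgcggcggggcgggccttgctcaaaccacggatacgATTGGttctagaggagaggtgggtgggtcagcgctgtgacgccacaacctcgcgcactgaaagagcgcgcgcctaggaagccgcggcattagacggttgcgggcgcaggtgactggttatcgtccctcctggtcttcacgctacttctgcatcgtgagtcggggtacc
Mcm7: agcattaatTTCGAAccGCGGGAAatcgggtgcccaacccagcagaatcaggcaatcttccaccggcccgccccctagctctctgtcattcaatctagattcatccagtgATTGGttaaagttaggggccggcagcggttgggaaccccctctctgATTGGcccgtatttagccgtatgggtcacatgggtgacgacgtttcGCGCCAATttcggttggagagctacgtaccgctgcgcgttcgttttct
Mcm6: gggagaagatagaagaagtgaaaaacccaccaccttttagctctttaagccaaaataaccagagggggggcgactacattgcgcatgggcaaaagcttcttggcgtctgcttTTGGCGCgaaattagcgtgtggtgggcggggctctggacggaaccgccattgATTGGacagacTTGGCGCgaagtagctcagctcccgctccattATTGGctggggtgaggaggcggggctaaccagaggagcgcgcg
Top2a: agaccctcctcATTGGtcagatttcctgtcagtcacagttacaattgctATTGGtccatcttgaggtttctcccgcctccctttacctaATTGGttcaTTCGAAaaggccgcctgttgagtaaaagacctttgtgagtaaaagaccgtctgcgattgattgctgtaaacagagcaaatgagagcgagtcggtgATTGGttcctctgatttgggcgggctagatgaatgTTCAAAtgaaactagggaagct
Prc1: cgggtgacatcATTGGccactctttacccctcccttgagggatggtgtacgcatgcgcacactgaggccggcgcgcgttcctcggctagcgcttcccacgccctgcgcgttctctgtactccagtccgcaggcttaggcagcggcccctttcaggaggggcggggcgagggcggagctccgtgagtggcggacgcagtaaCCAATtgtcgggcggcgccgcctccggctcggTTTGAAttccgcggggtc
Mki67: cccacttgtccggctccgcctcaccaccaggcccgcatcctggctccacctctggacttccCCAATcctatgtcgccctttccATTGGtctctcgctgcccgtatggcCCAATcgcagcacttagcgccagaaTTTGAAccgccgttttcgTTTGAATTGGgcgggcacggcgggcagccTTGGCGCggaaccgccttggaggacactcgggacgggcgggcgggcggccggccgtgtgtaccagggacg

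In these promoters the E2F-type motif stands in Mcm7, Mcm6 and Mki67, and a CHR match in Mcm7, Top2a, Prc1 and Mki67, where the Prc1 match begins 18 bases and the proximal Top2a match 22 bases before the start. One E2F-type match overlaps a CCAAT match in Mcm7, as a CHR match does in Mki67. Over the full tabled windows of 300 bases, which reach 50 bases past the start, 31 of the 38 members had a promoter in the table. An E2F-type motif was present in 8 of 10 S phase and 3 of 21 mitosis promoters, against 6.67% of all 27457 tabled promoters. A CHR motif was present in 2 of 10 S phase and 14 of 21 mitosis promoters, against 19.5% of all, and CCAAT in 8 of 10 and 15 of 21, against 37.7% of all. These are letter matches, not measured binding sites.

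The array medians ran from a signal of 51.6 to 120 over the 54 arrays, and a signal of 50 is the lower limit that the study itself set. Background control probe sets had a median of 19.0 to 36.1 and a 95th percentile of 339 to 626 over the arrays. A member signal above 50 can thus still lie within the range of these controls. Of the 54 arrays, 6 correlated below 0.96 with every other array of their group (highest within-group r of 0.867 to 0.958): replicate 3 of undifferentiated cervical naive, replicate 2 of undifferentiated thoracic naive, replicate 3 of differentiated SVZ naive and all 3 of differentiated thoracic naive. The labelled cell type was checked against 6 progenitor markers (Nes, Sox2, Vim, Pax6, Fabp7, Egfr), whose mean log2(signal + 16) was 10.94 to 11.12 on undifferentiated SVZ arrays and 8.62 to 9.66 on undifferentiated cord arrays, so the cord cultures carried a lower level of these markers. Undifferentiated cord arrays also carried fibroblast and pericyte markers at a mean between 5.22 and 12.43, against 4.90 to 4.99 in SVZ, and microglial markers at 7.34 to 9.11 in EAE and 4.73 to 5.68 in naive cord cultures.

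The mean log2(signal + 16) of the 38 members summarises their level on each array. It ran from 8.50 to 8.97 on the 6 undifferentiated SVZ arrays, from 6.40 to 10.03 on the 18 undifferentiated cord arrays, from 6.94 to 8.78 on the 6 differentiated SVZ arrays, from 6.15 to 7.88 on the 18 differentiated cord arrays and from 6.68 to 7.02 on the 6 biopsy arrays. The undifferentiated SVZ and biopsy arrays did not overlap, and neither did undifferentiated SVZ and differentiated cord. The widest spread was among naive undifferentiated cord cultures: the cervical replicates stood at 9.58, 9.74 and 6.40 and the thoracic replicates at 8.17, 10.03 and 7.45. On cervical replicate 3 only 20 of the 38 members exceeded a signal of 50. The fibroblast and pericyte mean on the same arrays was 8.49, 5.65 and 12.16 in cervical and 12.11, 5.32 and 12.43 in thoracic cultures. Within these groups the arrays with the lower member level carried the higher fibroblast level. Other groups differed: in undifferentiated caudal naive cultures replicate 3 was highest for both (8.77 and 9.68). So was replicate 1 in differentiated cervical naive cultures (7.60 and 10.11). The part of those cells in the members' level was not tested.

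**Figure D1:**
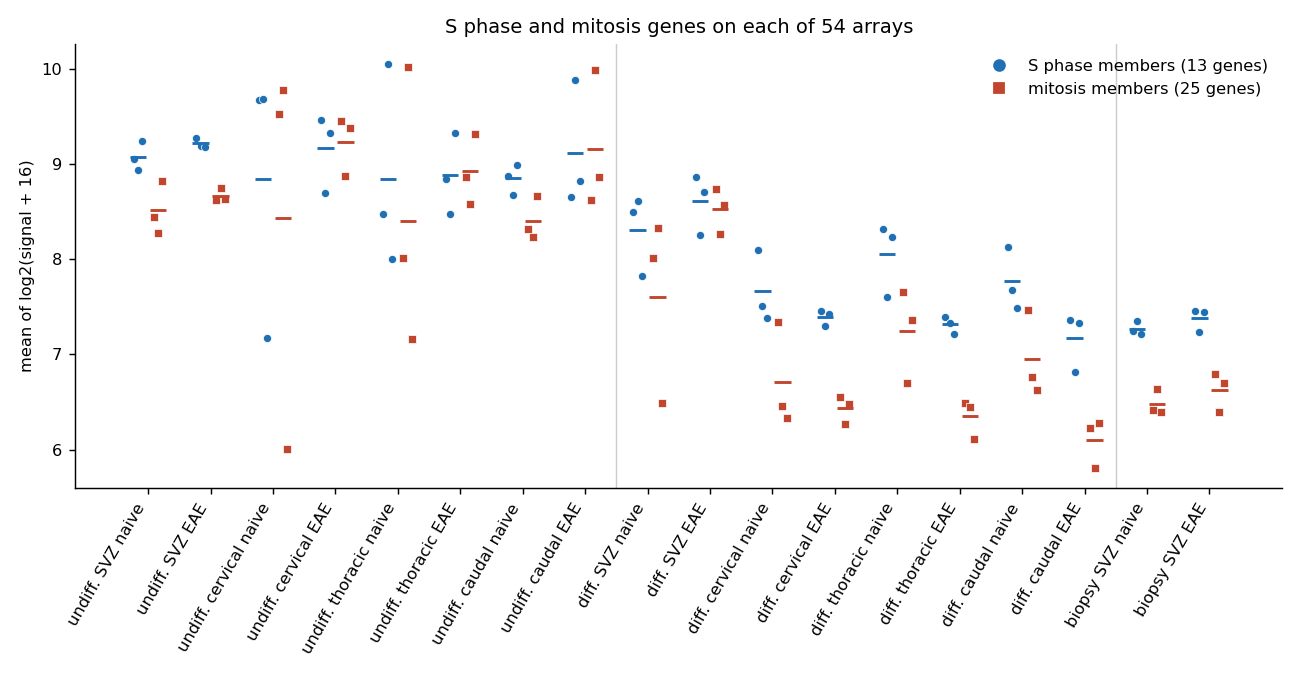
Mean log2(signal + 16) of the 13 S phase genes (circles) and the 25 mitosis genes (squares) on each array, with bars at the mean of each group of 3. Undifferentiated arrays stand on the left, differentiated arrays in the middle and biopsies on the right, and the differentiated SVZ EAE arrays lie between 8.26 and 8.86 for S phase and 8.26 and 8.73 for mitosis, while differentiated cord arrays lie between 6.81 and 8.31 for S phase and 5.80 and 7.66 for mitosis.

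The members moved as a block over the 48 culture arrays. The correlation of each member with the mean of all 38, which includes the member itself, was highest for Ttk, a checkpoint kinase (r = 0.997), and above 0.9 for 36 of 38. The exceptions were Tyms, thymidylate synthase (r = 0.779), and Aurkb, the kinase of the chromosomal passenger complex (r = 0.828), and both are described below. Outside the members, the genes closest to the members' mean over these arrays were Ect2 (r = 0.997), Cip2a (0.995), Cenpt (0.994), Dlgap5 (0.993), LOC684611 (0.991), Kif4a (0.991), Tacc3 (0.991), Cdca3 (0.990), Pclaf (0.990) and Lmnb1 (0.990). Ect2 starts the cleavage furrow, and Kif4a is a chromosome-bound kinesin.

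**Figure D2:**
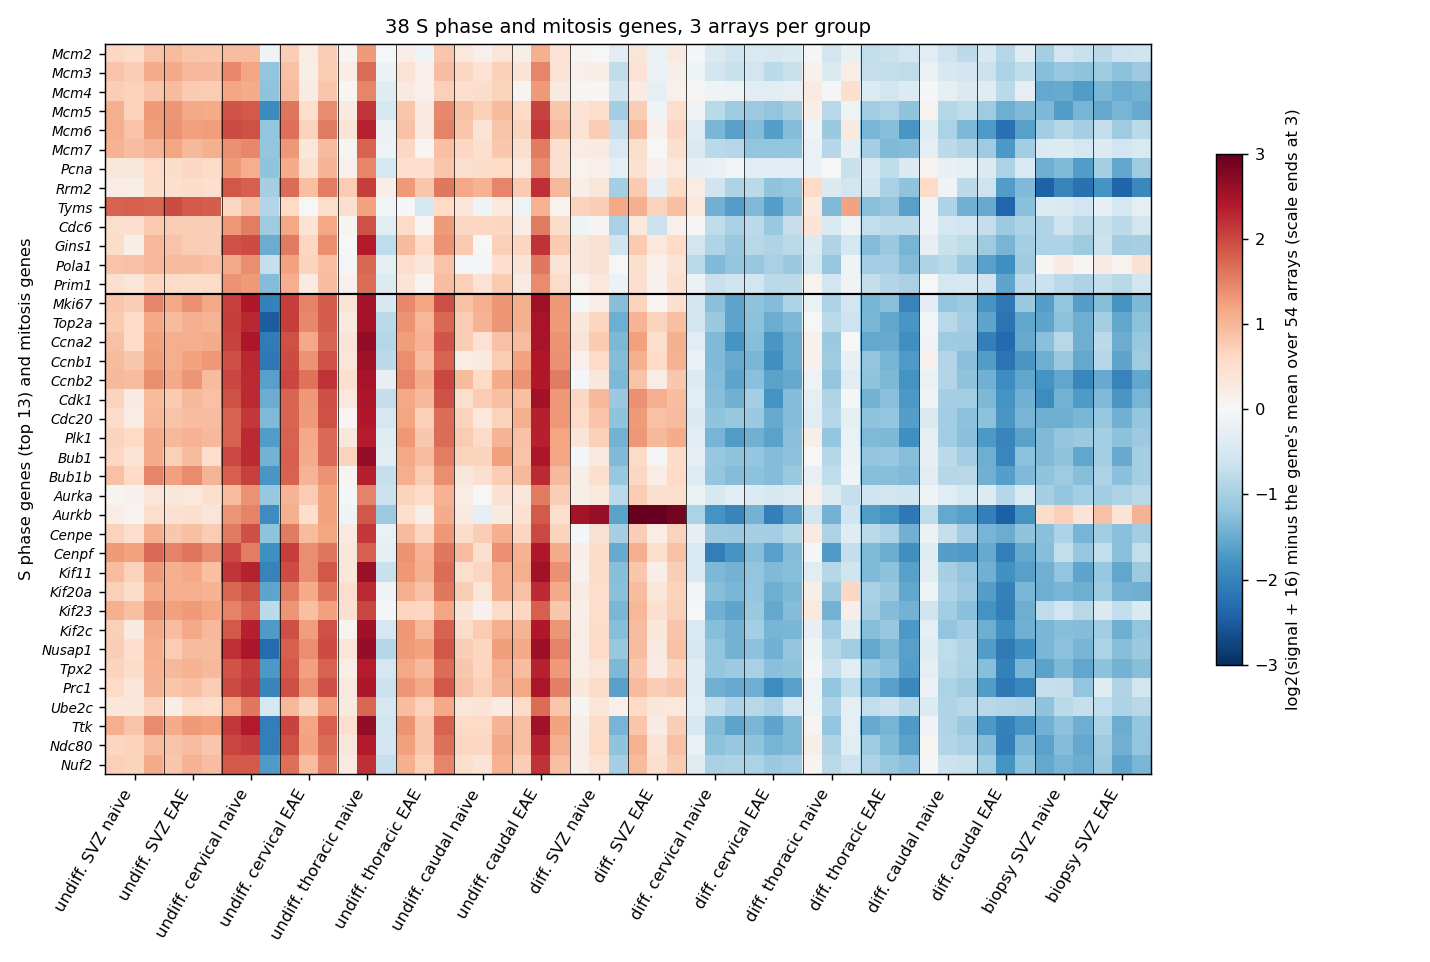
Each row is a member and each column an array, coloured by log2(signal + 16) minus that gene's mean over 54 arrays, with S phase genes above the black line. The rows change together from array to array, and the Tyms and Aurkb rows stand out in the SVZ columns.

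Differentiation of naive cultures was accompanied by a lower level of nearly all members. Over the mean of the 4 regions, 34 of 38 members fell and none rose, and the log2 differences of all 38 were negative, from -1.82 for Cenpf, a kinetochore protein, to -0.53 for Aurka, a spindle pole kinase. Of all 19576 probe sets tested, 26.8% were called lower and 6.64% higher. The median log2 difference was -1.23 over the members (-0.94 for S phase, -1.34 for mitosis) and -0.15 over all probe sets. A member was called when limma gave an adjusted p of at most 0.05 and a fold of at least 1.2.

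Among the S phase genes 11 of 13 fell. Mcm6, a helicase subunit, had signals of 584, 429 and 590 in undifferentiated and 245, 158 and 115 in differentiated caudal naive cultures, with no overlap. Over the 4 regions it fell by 1.42 (SE 0.35, adjusted p = 0.00428). Pola1, the catalytic subunit of polymerase alpha, fell by 1.12 (SE 0.23, adjusted p = 0.0013), and Mcm2 by 0.83 with a narrow error (SE 0.15, adjusted p = 0.000379). Mcm4 and Pcna missed the threshold, at log2 differences of -0.58 (SE 0.24, adjusted p = 0.0596) and -0.57 (SE 0.24, adjusted p = 0.0716).

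Among the mitosis genes 23 of 25 fell. Mki67, the proliferation antigen that coats mitotic chromosomes, had signals of 545, 507 and 848 in undifferentiated and 285, 346 and 114 in differentiated naive SVZ cultures. In caudal cultures its signals were 564, 653 and 768 against 230, 123 and 131. In both regions the groups did not overlap, whereas they overlapped in cervical and thoracic cultures. Over the 4 regions Mki67 fell by 1.67 (SE 0.42, adjusted p = 0.0049). Cyclin B2 (Ccnb2) fell by 1.63 (SE 0.39, adjusted p = 0.00347) and Top2a, the topoisomerase that untangles sister chromatids, by 1.38 (SE 0.47, adjusted p = 0.0275). The 2 Aurora kinases missed the threshold, Aurka at adjusted p = 0.114 and Aurkb at a log2 difference of -0.86 (SE 0.47, adjusted p = 0.162).

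The regions were unlike in how cleanly the naive arrays separated. Every differentiated array lay below every undifferentiated one for 25 members in SVZ (34.5% of probe sets) and all 38 in caudal cultures (39.5%), but for 1 member in cervical (Pola1; 13.6%) and 2 in thoracic cultures (Mcm2 and Mcm7; 12.8%).

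Genes of the same stages that are not members moved likewise: 16 of 27 other replication genes, 33 of 40 other mitosis genes and 6 of 11 tested E2F, Rb and MuvB-B-Myb-FoxM1 regulators fell, and none rose. Foxm1, a transcription factor of mitotic genes, fell by 1.13 (SE 0.27), and Uhrf1, which keeps DNA methylation through replication, fell by 1.42 (SE 0.37). Of the 6 progenitor markers 4 fell, as did 2 of 4 oligodendrocyte progenitor markers, and 2 of 4 oligodendrocyte and 2 of 4 astrocyte markers rose, with 1 astrocyte marker lower. The part of such cells in the members' result was not tested. The naive count depends on the replicates: 5 members were called without replicate 1 of every group and 2 without replicate 2, while 38 were called without replicate 3 and also without 3 of the 6 arrays that stand apart (differentiated thoracic kept), a fit that called 29.2% of probe sets lower. Quantile and 75th percentile scaling moved the median of all probe sets to 0.02 and 0.03, and relative to that median the members lay at -1.09 as deposited and at -1.06 and -1.08 under those scalings.

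In cultures from EAE rats all 38 members fell with differentiation over the mean of the 4 regions, when 34.1% of 19594 probe sets were called lower and 18.1% higher. The log2 differences ran from -2.57 for Ccnb2 to -0.91 for Mcm4. The median was -2.12 over the members (-1.55 for S phase, -2.21 for mitosis) and -0.06 over all probe sets. Top2a fell by 2.40 (SE 0.13, adjusted p = 3.43e-13), against an SE of 0.47 in naive cultures. Top2a signals in EAE caudal cultures were 1092, 2910 and 1272 before and 160, 97.8 and 162 after differentiation, without overlap.

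Prc1, which bundles microtubules of the central spindle, had signals of 880, 2164 and 1123 in undifferentiated and 109, 74.95 and 86.8 in differentiated EAE caudal cultures. Over the 4 regions it fell by 2.53 (SE 0.12, adjusted p = 5.75e-14), and cyclin B1 (Ccnb1) fell by 2.48 (SE 0.13, adjusted p = 1.97e-13). Among S phase genes Mcm6 fell by 2.22 (SE 0.16, adjusted p = 5.22e-11) and Rrm2, the regulated subunit of ribonucleotide reductase, by 1.81 (SE 0.16, adjusted p = 1.48e-09). Mcm4 and Mcm2 fell by less, 0.91 (SE 0.12) and 0.96 (SE 0.11). In the related lists 24 of 27 replication genes, 39 of 40 mitosis genes and 7 of 11 regulators fell. Anln, an actin-binding protein of the cleavage furrow, rose by 0.57. Its probe set, the brighter of 2, is annotated as sharing probes with other sequences, so this value is less certain. All 4 oligodendrocyte and 6 of 9 fibroblast and pericyte markers rose as well, and 5 of 6 progenitor and 3 of 4 oligodendrocyte progenitor markers fell. Again, their part in the result was not tested.

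Some members did not exceed a signal of 50 on any of the 3 arrays of a group, and only a lower bound on their fold can be given there. Ccna2, cyclin A2, did not exceed 50 on any differentiated EAE caudal array and was at least 7.81-fold higher before differentiation, set against a signal of 50. Ttk was at least 7.65-fold higher in undifferentiated than in differentiated EAE cervical cultures, and Kif20a, a cytokinesis motor, at least 6.82-fold higher in caudal cultures. Such members numbered 10 in caudal, 6 in thoracic and 4 in cervical differentiated EAE cultures, and 1 (Gins1) in each of differentiated cervical and thoracic naive cultures, besides 6 in naive and 3 in EAE biopsies.

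The drop with differentiation was not shown to differ between EAE and naive cultures. The difference between both effects was negative for all 38 members, with a median of -0.73 (0.04 over all probe sets), but 0 of 38 passed, against 2.68% higher and 1.52% lower over all probe sets. Ccnb1 had the largest difference (-1.21, SE 0.48, adjusted p = 0.116), and 11 members, all of mitosis, had an unadjusted p under 0.05. Without the 3 arrays that stand apart (differentiated thoracic kept), 24 members were called, all with a larger drop in EAE cultures, with a background of 4.52% lower and 4.88% higher in that fit. The differences over the mean of the regions hardly moved (Ccnb1 -1.22, Prc1 -1.16), but these 3 arrays shifted single naive regions in opposite directions. The members' median change went from -1.67 to -2.86 in cervical cultures without undifferentiated replicate 3. It went from -1.08 to -0.28 in thoracic cultures without undifferentiated replicate 2, and from -0.93 to -0.48 in SVZ without differentiated replicate 3. The stable mean thus does not show a stable drop within each naive region.

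The regions differed in how far the members dropped. The median log2 difference of the members with differentiation was -0.33 in SVZ against -2.67 in cervical, -2.38 in thoracic and -3.03 in caudal EAE cultures. In naive cultures it was -0.93 in SVZ, -1.67 in cervical, -1.08 in thoracic and -1.39 in caudal. Single arrays carry most of the naive values: the SVZ median was -0.48 without differentiated replicate 3, the cervical median ranged from -2.86 without undifferentiated replicate 3 to -0.98 without replicate 2 (-1.10 without replicate 1), and the thoracic median was -0.28 without undifferentiated replicate 2 and -1.67 without replicate 3. The EAE SVZ median was -0.18 without differentiated replicate 2. In EAE cord cultures of each of the 3 cord regions all 38 members lay lower on every differentiated than on every undifferentiated array, when 33.7% to 38.7% of probe sets did. In EAE SVZ cultures this held for 22 members (34.8% of probe sets), and Aurka and Aurkb lay higher on every differentiated array (31.8% of probe sets).

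Prc1 shows the contrast. In EAE SVZ cultures its signals were 697, 740 and 651 before and 763, 654 and 697 after differentiation, which overlap, while in EAE cervical cultures they were 1511, 1003 and 1511 before and 129, 93.0 and 114 after. Tested as a contrast in EAE cultures, the change in cord minus the change in SVZ was called below 0 for 33 of 38 members. These were 8 of 13 S phase and 25 of 25 mitosis genes, when 28.3% of probe sets were called lower and 12.8% higher. The median of this difference was -2.27 over the members and -0.13 over all probe sets. Aurkb had the largest value (-5.43, SE 0.34, adjusted p = 6.6e-12), followed by Prc1 (-3.39, SE 0.28, adjusted p = 1.08e-09). The Aurkb value is not exact, since Aurkb did not exceed a signal of 50 in differentiated thoracic and caudal EAE cultures. The 5 members that missed the threshold were Cdc6, Tyms, Mcm3, Mcm2 and Mcm4, all of S phase, with log2 differences from -0.82 to -0.15, and for Mcm4 the sign turned under 2 other scalings (0.05 and 0.15).

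The same lists outside the members gave 38 of 40 mitosis genes, 18 of 27 replication genes and 6 of 11 regulators with the larger drop in cord, and 1 regulator, E2f3, with the opposite sign (0.60). Astrocyte markers were also called in this contrast, 3 of 4 with a larger drop in cord, as were 8 of 12 microglial, 4 of 6 progenitor, 4 of 5 tested neuron and 3 of 4 oligodendrocyte progenitor markers. Their part in the members' result was not tested. The EAE contrast was chosen after seeing the data. In naive cultures 0 of 38 members were called in the same contrast, against 6.01% lower and 2.48% higher over all probe sets (1 member had an unadjusted p under 0.05, Aurkb at -2.35, SE 1.09, adjusted p = 0.203). The naive count was 2 without replicate 3 of every group and 10 (9.46% of probe sets lower, 3.97% higher) without the 3 arrays that stand apart, 1 of which is the SVZ replicate with the low member level.

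**Figure D3:**
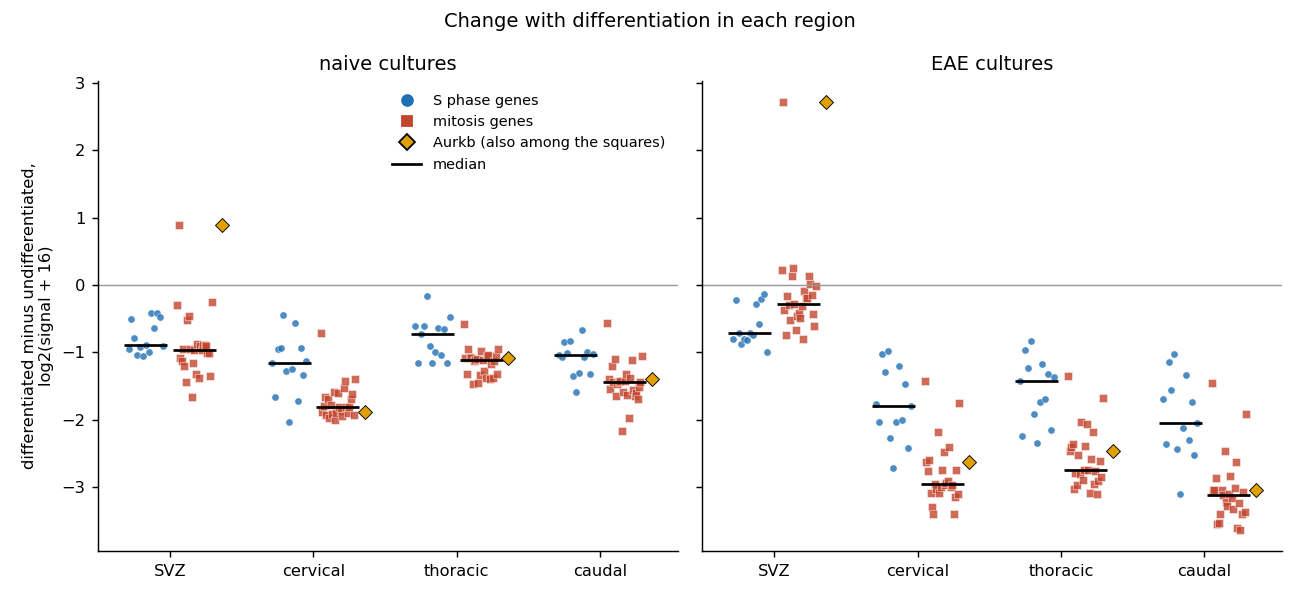
Difference between differentiated and undifferentiated cultures on the log2(signal + 16) scale for each member, by region, in naive (left) and EAE (right) cultures, with S phase genes as circles, mitosis genes as squares, medians as black lines and Aurkb repeated as a diamond. In EAE cultures the SVZ points lie between -0.99 and 2.71 (median -0.33) and the cord points between -3.63 and -0.83.

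Aurkb ran against the other members in SVZ. Its signals in undifferentiated SVZ cultures were 195, 178 and 246 in naive and 234, 241 and 219 in EAE. In differentiated SVZ cultures they were 1009, 1106 and 44.3 in naive and 1806, 1729 and 1326 in EAE, so every EAE array and 2 of 3 naive arrays were high and 1 naive array was low. In differentiated cord cultures they lay between 17.3 and 106 on 18 arrays. Its log2 difference with differentiation was 2.71 (SE 0.29) in EAE SVZ and -2.63 (SE 0.29) in EAE cervical cultures. In EAE thoracic and caudal cultures it did not exceed 50 on any differentiated array and was at least 4.19-fold and 5.31-fold higher before differentiation. The low naive array is replicate 3, which stands apart from its group. In EAE SVZ cultures 6 of 38 members had a positive difference: besides Aurkb these were Cdk1 (0.25, SE 0.30), Aurka (0.22, SE 0.20), Cdc20 (0.14, SE 0.26), Plk1 (0.13, SE 0.27) and Prc1 (0.02, SE 0.24). Aurka did not overlap, with signals of 270, 269 and 299 before and 370, 303 and 312 after differentiation.

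Between cord and SVZ, Tyms was lower in undifferentiated cord cultures of both naive and EAE rats. Tyms, which makes thymidylate for DNA, had signals of 849 to 976 with a median of 877 on the 6 undifferentiated SVZ arrays and of 122 to 574 with a median of 306 on the 18 undifferentiated cord arrays, without overlap. It fell by 1.46 in cord against SVZ among naive cultures (SE 0.36, adjusted p = 0.0156) and by 1.63 among EAE cultures (SE 0.24, adjusted p = 5.39e-05). It was the only naive member called of 38, when 10.6% of probe sets were called lower and 12.2% higher in cord. The naive count was 0 without replicate 1, 2 without replicate 3, and 4 (1 higher, 3 lower; 21.5% of probe sets higher and 20.1% lower) without the arrays that stand apart.

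Among EAE undifferentiated cultures 7 members were higher in cord and 1, Tyms, lower. Over all probe sets 18.5% were called higher and 29.2% lower, so members were called higher about as often as probe sets in general. Rrm2 signals were 1119, 1169 and 1135 in EAE SVZ and ranged from 1388 to 3669 with a median of 1933 on the 9 EAE cord arrays, above SVZ on every array. Rrm2 rose by 0.79 (SE 0.25, adjusted p = 0.0173) and Prc1 by 0.80 (SE 0.22, adjusted p = 0.00864). Nusap1, Bub1, Ccnb2, Ube2c and Aurka rose by 0.50 to 0.75. Of the other lists 8 of 40 mitosis and 4 of 27 replication genes were higher and 1 mitosis gene was lower. All 12 microglial markers were higher in EAE cord too (score 7.34 to 9.11 against 4.796 to 4.887), as were all 4 oligodendrocyte markers (10.59 to 11.60 against 7.44 to 8.50), 3 of 4 oligodendrocyte progenitor markers (9.32 to 10.14 against 7.75 to 7.83) and 7 of 8 tested fibroblast and pericyte markers. Of the 6 neural progenitor markers 5 were lower (8.69 to 9.15 against 10.95 to 11.12). Their part in the result was not tested. The count is unstable: 2, 18 and 1 members were called without replicates 1, 2 and 3, 17 and 16 under quantile and 75th percentile scaling, and 1 with all 18 groups in 1 fit.

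Among differentiated cultures from EAE rats the cord lay below SVZ. In EAE cultures all 38 members fell, when 43.9% of probe sets were called lower and 17.4% higher, so the background was itself high. The median log2 difference was -1.97 over the members and -0.21 over all probe sets. Aurkb fell by 5.04 (SE 0.16, adjusted p = 2.36e-12; not exact, as above), and Plk1, a kinase of mitotic entry, by 2.70 (SE 0.13, adjusted p = 2.05e-10). Tyms signals were 517, 392 and 463 in EAE SVZ and 33.0 to 96.3 with a median of 85.9 on the 9 EAE cord arrays, and Tyms fell by 2.38 (SE 0.19, adjusted p = 4.55e-08). Mcm4 fell by 0.45 (SE 0.13, adjusted p = 0.00867), but its difference was -0.04 under quantile and 0.02 under 75th percentile scaling.

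In naive differentiated cultures 4 members fell in cord against SVZ. That was a smaller share than over all probe sets, of which 16% were called lower and 6.43% higher. Pola1 signals were 193, 214 and 148 in SVZ and 50.7 to 137 with a median of 72.4 on the 9 cord arrays, and it fell by 1.14 (SE 0.20, adjusted p = 0.00258). The others were Ube2c (-0.81, SE 0.19), Aurkb (-2.42, SE 0.74) and Gins1 (-0.74, SE 0.23), which did not exceed 50 in cervical and thoracic cultures. All 4 astrocyte markers were lower and all 4 oligodendrocyte markers higher in cord, in naive and in EAE differentiated cultures, with astrocyte scores of 11.53 to 12.31 in SVZ and 6.21 to 9.56 in cord. Progenitor markers were lower in cord too, 5 of 6 in naive and 6 of 6 in EAE cultures, with scores of 10.29 to 10.56 in SVZ and 7.18 to 9.21 in cord. The part of these cells in the result was not tested. The count was 0 without replicate 1 or 2, 11 without replicate 3, and 17 (12.8% of probe sets lower, 5.60% higher) without the arrays that stand apart (differentiated thoracic kept).

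**Figure D4:**
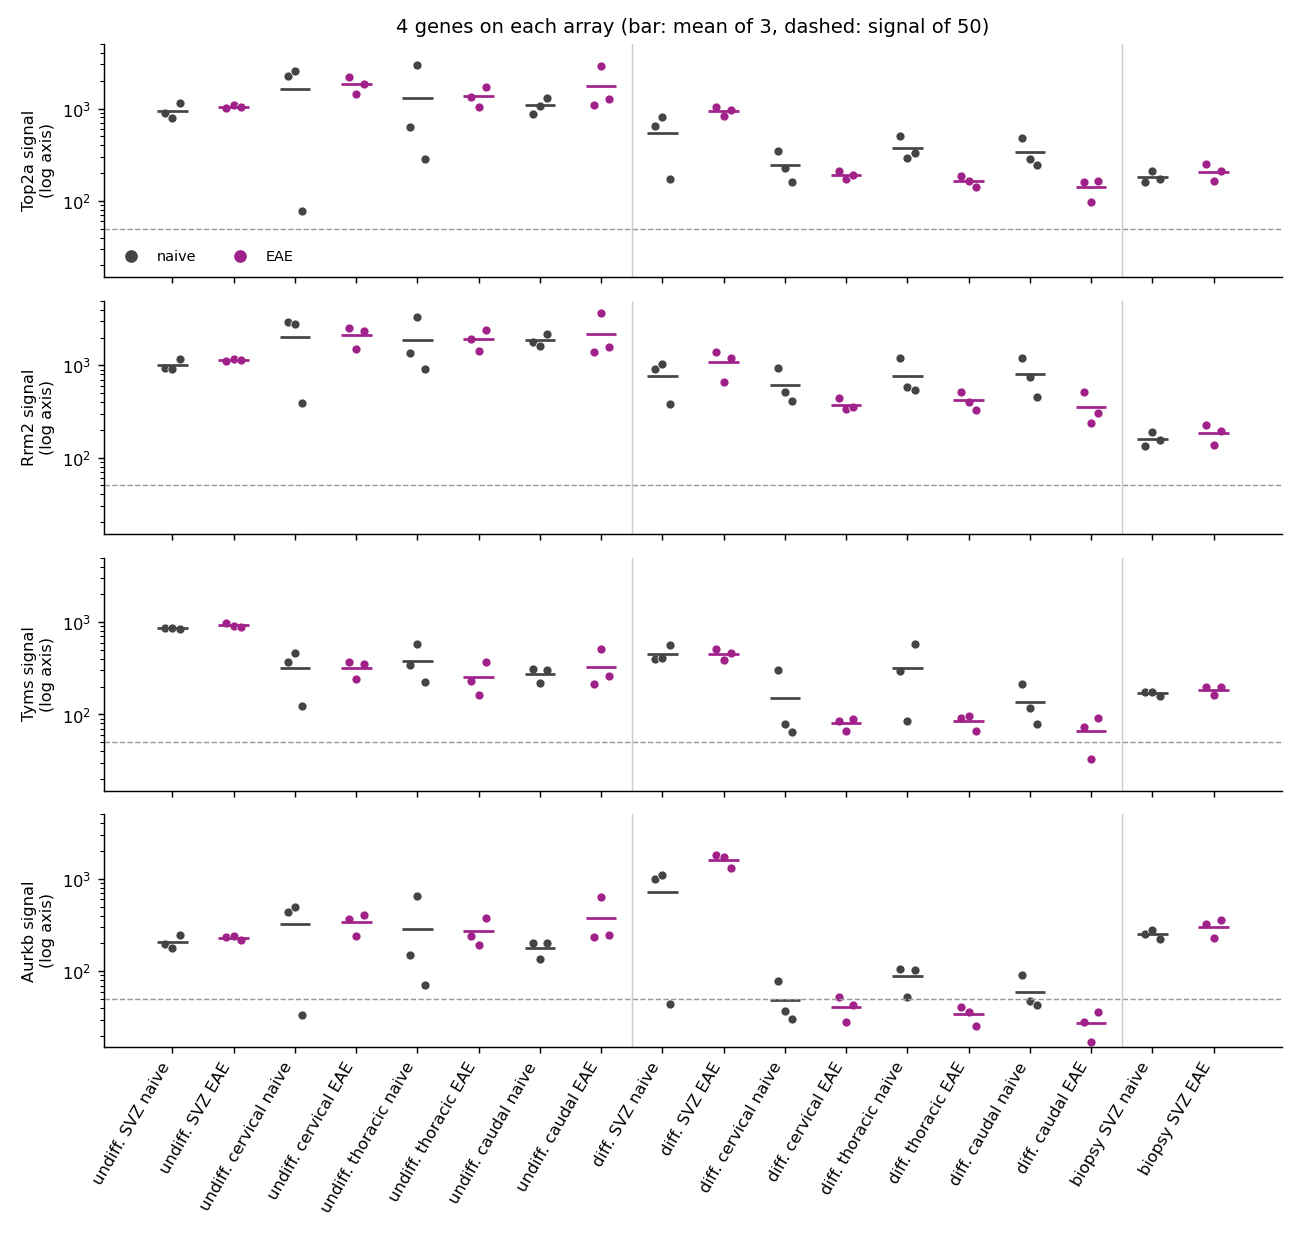
Signals of Top2a, Rrm2, Tyms and Aurkb on each array on a log axis, with bars at the mean of 3 arrays and a dashed line at a signal of 50. Tyms is high in undifferentiated SVZ (849 to 976) against cord, and Aurkb is high in differentiated SVZ (up to 1806) and at or below 106 in differentiated cord.

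SVZ tissue carried the members at a much lower level than undifferentiated SVZ cultures. In naive rats 37 of 38 members fell in biopsies against undifferentiated cultures, when 43.7% of probe sets were called lower and 33.2% higher. The median log2 difference was -2.09 over the members and -0.10 over all probe sets. Ccnb2 signals were 550, 530 and 742 in culture and 67.2, 81.5 and 58.3 in tissue, and Ccnb2 fell by 2.87 (SE 0.14, adjusted p = 9.59e-10). Rrm2 signals were 930, 903 and 1171 against 133, 189 and 155, and Rrm2 fell by 2.54 (SE 0.14, adjusted p = 2.33e-09). Pola1 fell least (0.78, SE 0.10, adjusted p = 1.57e-05).

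Aurkb was the exception, with signals of 195, 178 and 246 in culture and 251, 282 and 222 in tissue, which overlap (log2 difference 0.27, SE 0.13, adjusted p = 0.0733). It passed under quantile and 75th percentile scaling (0.39 and 0.49, adjusted p = 0.0134 and 0.0048). Of the related lists 38 of 41 mitosis, 25 of 27 replication and 9 of 11 regulator genes were lower in tissue. All 6 neuron markers were higher in tissue, with scores of 11.16 to 11.27 against 6.16 to 6.45, and all 11 tested microglial, all 4 oligodendrocyte, both endothelial and 3 of 4 astrocyte markers were higher. Of the 6 neural progenitor markers 5 were lower, with scores of 8.28 to 8.47 against 10.94 to 11.02. Their part in the result was not tested.

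Against differentiated naive SVZ cultures 23 of the 34 members tested fell in tissue and none rose, when 35.6% of probe sets were called lower and 27.6% higher. The 4 members not tested (Gins1, Bub1, Bub1b, Kif2c) did not exceed a signal of 50 on at least 3 of the 6 arrays. Pcna signals were 1027, 1070 and 791 in culture and 338, 376 and 291 in tissue, a clear gap, and Pcna fell by 1.47 (SE 0.15, adjusted p = 0.000163). Rrm2 fell by 2.06 (SE 0.35, adjusted p = 0.00173), while Pola1 had a log2 difference of -0.15 (SE 0.15, adjusted p = 0.414). All 6 neuron markers, both endothelial and 4 of 11 tested microglial markers were higher in tissue, and 5 of 6 progenitor and 3 of 4 astrocyte markers were lower, while 1 progenitor marker was higher. Their part in the result was not tested. Leaving out culture replicate 1 or 2 gave 10 and 11 members, leaving out biopsy replicates 1, 2 and 3 gave 10, 11 and 10, and leaving out culture replicate 3, which stands apart, gave 31 (38.4% of probe sets lower). The study's kind of test, a t-test, called 7, and a fit of all 18 groups 14.

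The study's own question was how EAE changes progenitors of each region. Among undifferentiated cultures, no member was called in SVZ, cervical or thoracic cultures, where limma called 0.0% of probe sets in either direction. The median log2 difference of the members, EAE minus naive, was 0.16 in SVZ, 0.65 in cervical and 0.44 in thoracic cultures, and no member had an unadjusted p under 0.05. These medians rest on single arrays: the cervical one was -0.46 without naive replicate 3, with all 38 members negative, and 1.22 and 1.27 without naive replicates 1 and 2. The thoracic one was 1.24 and -0.16 without naive replicates 2 and 3 and 0.25 without naive replicate 1, and 0.24 without EAE replicate 3. In SVZ it was 0.05 without naive replicate 2 and 0.26 without naive replicate 3, and the signs depend on scaling, with 37 of 38 differences positive as deposited and 23 and 26 positive under 2 other scalings. In thoracic cultures 24 members were called higher in EAE without naive replicate 2. That array stands apart and has the highest member level of all arrays. The background in that fit was 5.79% higher and 6.19% lower. Fibroblast and pericyte scores were 5.32 on naive replicate 2, 12.11 and 12.43 on the naive arrays kept, and 8.16 to 9.41 on the EAE arrays. The part of such cells in those calls was not tested. In cervical cultures 0 were called with or without naive replicate 3. Over the mean of the 4 regions 0 of 38 were called (2.19% of probe sets higher, 4.04% lower; no member at an unadjusted p under 0.05), and 15 were called higher without both arrays (6.98% of probe sets higher, 10.4% lower).

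In undifferentiated caudal cultures 3 members rose in EAE, against 3.32% higher and 13.9% lower over all probe sets. Ccnb1 signals were 289, 302 and 424 in naive and 582, 1352 and 655 in EAE cultures, without overlap, and Ccnb1 rose by 1.23 (SE 0.28, adjusted p = 0.0138). Cdc20, the anaphase activator, had signals of 377, 284 and 374 against 496, 1210 and 576 and rose by 1.00 (SE 0.28, adjusted p = 0.0327). Ccnb2 rose by 0.88 (SE 0.25, adjusted p = 0.0357). In all, 10 members lay higher on every EAE than on every naive array, when 7.98% of probe sets did, and EAE replicate 2 was the highest of the 6 for each of the 3 genes named. The median was 0.65 over the members (0.20 for S phase, 0.71 for mitosis) and -0.14 over all probe sets, and it was 0.22 over the members without EAE replicate 2. Of the related lists 4 of 40 other mitosis genes were called higher, among them Cdca2 (1.02) and Kif15 (0.99).

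The marker lists changed in the same comparison: 12 of 12 microglial markers rose (score 8.25 to 8.65 in EAE, 4.73 to 5.32 in naive), and 9 of 9 fibroblast and pericyte markers fell (5.22 to 7.70 against 8.46 to 9.68), as did 4 of 4 oligodendrocyte markers (10.59 to 11.01 against 11.97 to 12.34). Their part in the members' result was not tested. The count was 0 without naive replicate 1, 1 without naive replicate 2, 8 without EAE replicate 1, 14 and 15 under quantile and 75th percentile scaling, and 0 by the t-test or with all 18 groups in 1 fit.

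Among differentiated cultures the EAE differences had opposite signs in SVZ and in cord. In SVZ all 38 log2 differences were positive, with a median of 0.79, against 0.14 over all probe sets, but none was called, as was no probe set (0.0% in either direction), and no member had an unadjusted p under 0.05. Ccnb1 signals were 274, 368 and 89.9 in naive and 531, 378 and 521 in EAE SVZ cultures. Aurkb had the largest difference (1.98, SE 1.10, adjusted p = 0.355), which was 0.60 without naive replicate 3. The median of the members was then 0.28, with 32 of 38 positive, and 2 members were called, when 6.70% of probe sets were called higher. In 2 other scalings 36 of 38 differences were positive. Naive replicate 3 also had other marker scores than naive replicates 1 and 2. It scored 7.80 against 5.03 and 5.06 for microglial and 11.87 against 8.84 and 8.39 for oligodendrocyte markers. For fibroblast and pericyte markers it scored 5.16 against 6.94 and 6.85. The part of such cells in the members' result was not tested.

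In differentiated thoracic cultures all 35 members tested had a negative difference, with a median of -0.85 (0.00 over all probe sets). None passed (lowest adjusted p = 0.598), when 0.0% of probe sets were called, although 25 members had an unadjusted p under 0.05. Ccnb1 signals were 270, 108 and 209 in naive and 97.6, 83.4 and 63.6 in EAE thoracic cultures. For 29 of all 38 members every EAE array lay below every naive array, when 13.6% of tested probe sets did. The 29 include Gins1, which did not exceed 50 on any of these arrays. Without naive replicate 2, 3 members were called lower, and 1 in a fit of all 18 groups. All 3 naive thoracic arrays stand apart from one another, with highest within-group r of 0.934 to 0.952.

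In differentiated caudal cultures 6 of the 33 members tested fell in EAE, when 0.557% of probe sets were called lower and 0.333% higher. Nusap1, a spindle protein, had signals of 177, 133 and 120 in naive and 63.6, 41.8 and 55.8 in EAE cultures, and fell by 1.19 (SE 0.22, adjusted p = 0.011). Prc1 signals were 341, 193 and 176 against 109, 74.95 and 86.8, and Prc1 fell by 1.20 (SE 0.24, adjusted p = 0.0175). Ccnb1 and Top2a also fell, by 1.20 and 1.14. Ccna2 and Ttk were called lower too (adjusted p = 0.0304 and 0.0302), but neither exceeded 50 on any EAE array, so they were at least 1.55-fold and 1.47-fold higher in naive cultures. The median over the members was -0.82 and was -0.54 without naive replicate 1. EAE replicate 2 had the lowest 75th percentile of signal of all arrays (190) and the lowest member level (6.15). For 29 of all 38 members, tested or not, the EAE arrays all lay below the naive arrays, when 9.78% of tested probe sets did. Of the other mitosis genes 3 of 28 fell, Cdca3 the most (-1.29, SE 0.23).

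The microglial markers rose in 10 of 12 cases in the same comparison (score 7.54 to 8.64 in EAE and 4.83 to 7.43 in naive). Scores of progenitor markers (7.18 to 7.63 in EAE, 7.94 to 8.996 in naive) and of astrocyte markers (7.06 to 7.75 in EAE, 7.95 to 9.54 in naive) were lower on every EAE array, with 1 of 4 tested progenitor and 0 of 4 astrocyte markers called. Their part in the members' result was not tested. The call of these 6 members ended under log2(signal + 1), without the signal filter, under both other scalings, by the t-test and with all 18 groups in 1 fit, each giving 0, while the signs held for at least 30 members. Leaving out EAE replicate 1, 2 or 3 gave 11, 0 and 19 members, and leaving out naive replicate 1, 2 or 3 gave 2, 13 and 16.

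In differentiated cervical cultures none of 32 members tested passed (0.127% of probe sets higher, 0.00577% lower), with a median of -0.28 (-0.02 without naive replicate 1) and 1 member at an unadjusted p under 0.05, Mcm7 (-0.47, SE 0.14). Over the mean of the 4 differentiated regions 0 of 38 were called (0.605% of probe sets higher, 0.174% lower), with a median of -0.30 and 13 members at an unadjusted p under 0.05. In SVZ tissue 0 of 32 were called (0.0151% of probe sets higher, 0.0% lower), and no member had an unadjusted p under 0.05. The biopsy differences were small, from -0.02 for Mcm7 to 0.27 for Pcna. Their SEs were 0.11 to 0.17, so small changes in either direction are not excluded.

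**Figure D5:**
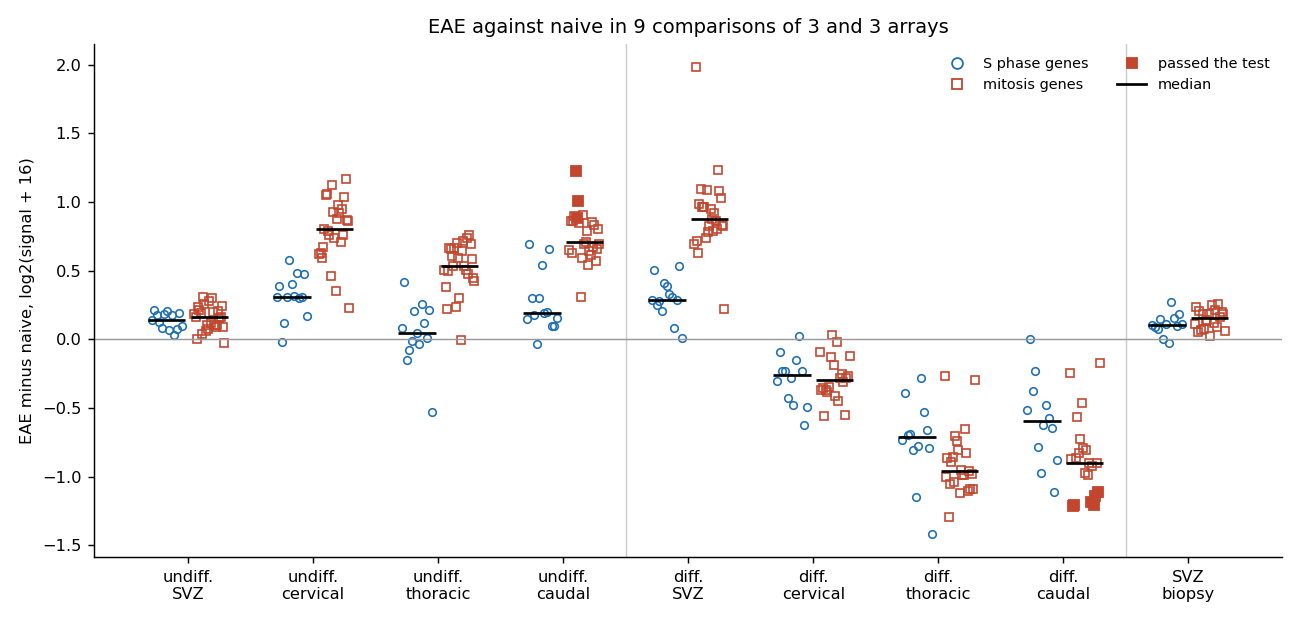
Difference between EAE and naive groups on the log2(signal + 16) scale for each tested member in 9 comparisons, with S phase genes as circles, mitosis genes as squares, medians as black lines and filled symbols for members that passed the test. The 3 filled symbols in undifferentiated caudal cultures lie between 0.88 and 1.23 and the 6 in differentiated caudal cultures, of which Ccna2 and Ttk carry only bounds, lie below 0.

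In the authors' deposited table of pairwise ratios the 38 members had ratios of differentiated over undifferentiated samples, taken over all groups, from 0.213 to 1.19, with a median of 0.305, and 37 of 38 were under 1. In the authors' deposited table the EAE over naive ratios had medians of 0.481 in differentiated thoracic and 0.484 in differentiated caudal cultures, with 14 and 5 members at an unadjusted p under 0.05, and medians of 1.63 in differentiated SVZ and 1.74 in undifferentiated caudal cultures, with 0 members in each.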

How the data were processed

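RNA from 54 samples was read on Affymetrix arrays with 27342 main and 1873 control probe sets. The deposited values are linear intensities that the authors summarised with PLIER, with a PM-GCBG background and global median normalization per the file headers, in Affymetrix Expression Console per the submitters' processing notes. The authors' deposited table gives each comparison as a ratio with a p-value, and it was used only where named. Columns of unknown sample numbered 0.

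Signals were turned into log2(signal + 16), which understates the change of low genes. Probe sets above 50 on at least 3 arrays of a fit were tested with limma 3.58.1 (R 4.3.3), and p-values were adjusted by Benjamini-Hochberg across all of them. A call needs an adjusted p of at most 0.05 and a fold of at least 1.2, the thresholds of the study's design. The brightest probe set naming 1 gene stood for each gene. The limma step was tested on simulated data. Comparisons of differentiation, region and EAE share arrays, so they are not independent.

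All members are covered by ranges and counts, and those with the largest or smallest change, or against the others, are named, as are up to 4 called genes of each related list. Where a gene was named for its per-sample values beyond this, it was chosen after its values were seen. Members, related lists and marker lists were chosen with earlier results of these data known. Promoters come from RefSeq assembly GRCr8. Alternatives were another pseudocount, no filter, 2 scalings, a joint fit, a replicate block, all probe sets of a gene, the methods' t-test and arrays left out. The precision is limited by 3 arrays per group.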

Additional observations from a re-analysis of the deposited data

Results flagged for a closer look

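In EAE cultures the drop with differentiation was larger in cord than in SVZ for 33 of 38 members by the limma test of that difference, a contrast chosen after seeing the data. The median difference was -2.27.

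In differentiated cultures 7 members (Top2a, Ccnb1, Cdc20, Plk1, Aurkb, Prc1 and Nuf2) lay higher on every EAE than on every naive SVZ array and lower on every EAE than on every naive thoracic array, and the same 7 did so against caudal cultures. In SVZ 8 of 38 members lay higher in this way, a smaller share than the 27.4% of tested probe sets that did. In each of thoracic and caudal cultures 29 of 38 members lay lower, when 13.6% and 9.78% of tested probe sets did. The members were counted without the signal filter that these shares use. These opposite directions were not tested as a difference between regions. In SVZ the naive replicate 3 that stands apart is 1 of the 3 control arrays, and in thoracic cultures all 3 control arrays stand apart.

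Aurka and Aurkb, 2 members, lay higher on every differentiated than on every undifferentiated EAE SVZ array and lower in cervical cultures. The same 2 did so against thoracic and the same 2 against caudal cultures. Of all probe sets 31.8% lay higher in SVZ, a larger share than of the members. In cervical, thoracic and caudal cultures 38.7%, 33.7% and 36.2% of all probe sets lay lower. These differences between single regions were not tested.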

How the results depend on the processing

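Over the 49 named member results, 582 alternative values gave 482 with the same direction and call, 73 no longer called, 24 newly called and 3 with the opposite sign. The last are Mcm4, whose difference in the EAE contrast of cord minus SVZ was 0.054 under quantile and 0.15 under 75th percentile scaling, and in EAE differentiated cord against SVZ 0.018 under 75th percentile scaling. Of 280 alternative counts over 22 comparisons, 52 moved by more than 1.5 times. Without the arrays that stand apart, members called were 24 (0 with them) for differentiation in EAE minus naive, 10 (0) for naive cord minus SVZ, 4 (1) and 17 (4) for cord against SVZ in naive undifferentiated and differentiated cultures, 24 (0) for EAE in undifferentiated thoracic, 15 (0) over undifferentiated regions and 2 (0) in differentiated SVZ cultures. Where a comparison uses differentiated thoracic naive cultures these 3 arrays were kept, a choice made after seeing the data, because the planned version leaves that group empty and could not be fitted. Quantile and 75th percentile scaling gave 17 and 16 (8) for EAE undifferentiated cord against SVZ, 14 and 15 (3) for EAE in undifferentiated caudal and 0 and 0 (6) in differentiated caudal cultures. The joint fit of 18 groups gave 1 (0) for naive cord minus SVZ, 1 (8) for EAE undifferentiated cord against SVZ, 14 (23) for biopsy against differentiated culture, 0 (3) for undifferentiated caudal, 1 (0) for differentiated thoracic and 0 (6) for differentiated caudal cultures. The methods' t-test gave 7 (23) for biopsy against differentiated culture, 0 (3) for undifferentiated caudal and 0 (6) for differentiated caudal cultures, where log2(signal + 1) and no filter also gave 0 each. The cause of these changes was not tested.

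Leaving out replicates gave 2 to 38 called members for naive differentiation, 38 to 38 for EAE differentiation, 0 to 2 for naive and 29 to 36 for EAE cord minus SVZ, and 0 to 0 for EAE minus naive. For cord against SVZ it gave 0 to 2 and 1 to 18 in naive and EAE undifferentiated and 0 to 11 and 30 to 35 in naive and EAE differentiated cultures, and for biopsies 31 to 37 and 10 to 31 against undifferentiated and differentiated culture. For EAE it gave 0 to 24 in undifferentiated thoracic, 0 to 8 in undifferentiated caudal, 0 to 2 in differentiated SVZ, 0 to 3 in differentiated thoracic and 0 to 19 in differentiated caudal cultures, and 0 in the other 6 comparisons. Same-numbered samples were compared between EAE and naive groups (r from -0.436 to 0.443), between biopsy and culture (-0.0408 to 0.272), between differentiated and undifferentiated groups of a region and disease state (-0.453 to 0.574) and between regions (-0.506 to 0.919). Every number had r over 0.1 in 0 of 9, 0 of 2, 1 of 8 (thoracic naive) and 5 of 24 pairs of groups. It did so in no comparison for all of its pairs, so the main fits do not pair samples by number. Some same-numbered cord arrays did vary together. Between naive undifferentiated cervical and thoracic cultures r was 0.919 and 0.874 for replicates 2 and 3 and -0.297 for replicate 1. Between the EAE ones it was 0.402 to 0.641. The labels do not say whether such arrays share a source, and the SEs of means over regions take no account of it. With a replicate block within each region and disease state, added after seeing the data, the 5 differentiation comparisons gave 34, 38, 0, 0 and 33, the counts without it. With the replicate block over all groups the counts were 36 for naive and 38 for EAE differentiation, 33 for EAE cord minus SVZ, 1, 9, 5 and 38 for the 4 comparisons of cord against SVZ, 37 and 26 for biopsies, 2 for undifferentiated and 8 for differentiated caudal EAE, and 0 for the others, none moved by over 1.5 times. Members at or below a signal of 50 carry only bounds.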
